A study of Mus musculus with 6 samples.

Results

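The genes described here are 47 genes of DNA replication and S phase, all of which are listed among the 55809 gene rows of the count tables. They were chosen by symbol, from the licensing of replication origins through the fork enzymes and nucleotide supply to the regulators of S-phase entry, and all 47 passed the filter on low counts that left 16716 genes for testing. The RNA came from mast cells of fetal mouse skin (genotype C57BL6J) at embryonic day 18.5, sorted as CD45-positive cells that carried CD117 (KIT) and ST2 but neither F4/80 nor CD64. Dams of the prenatal stress group (PS) had been restrained in drilled tubes beneath a bright lamp, 3 sessions of 30 minutes each day, from day 13 to 18 in the treatment protocol or 13.5 to 18.5 in the design text. Dams of the control group (CT) were left alone. Each group had 3 libraries, each a pool from 4 offspring; the growth protocol says that both sexes were used. The labels give the dams as 8 to 10 weeks old. The number of dams behind a pool is not given, and p-values reflect only how these pools vary. Stress libraries held 51710555 to 57806119 counts and control libraries 54616570 to 74735139.

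Replication of DNA is prepared in G1, when the origin recognition complex, CDC6 and CDT1 load the MCM2-7 helicase onto origins. CDC45 and the GINS complex then join the helicase, and DNA polymerases, the PCNA sliding clamp and its loader copy the strands. Transcription of most of these genes is switched on at the G1 to S transition by E2F factors once cyclin-dependent kinases have inactivated the retinoblastoma family, so their summed mRNA is widely used as a measure of cycling in a cell population. Most mature mast cells are not dividing, whereas mast cells of fetal tissue are still expanding.

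Many replication genes were lower after prenatal stress, by small amounts. Of the 47 genes, 15 fell, 0 rose and 32 did not pass, at an adjusted p below 0.05 in edgeR's quasi-likelihood test over all 16716 genes. This is 31.9% of the genes called lower, where 1.85% of all genes tested were called lower and 4.34% were called higher. The median log2 fold change was -0.25, against 0.00 over all genes tested (-0.0039 unrounded), and 44 of the 47 values were negative, from -0.43 for Tk1 to 0.07 for Rfc5. In 31 of the 47 (66.0%) all 3 stress libraries lay below all 3 controls, which was so for 14.5% of all genes tested. The 3 genes with positive values were Rfc5, Gins4 and Slbp, and the smallest unadjusted p among them was 0.253.

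**Figure D1:**
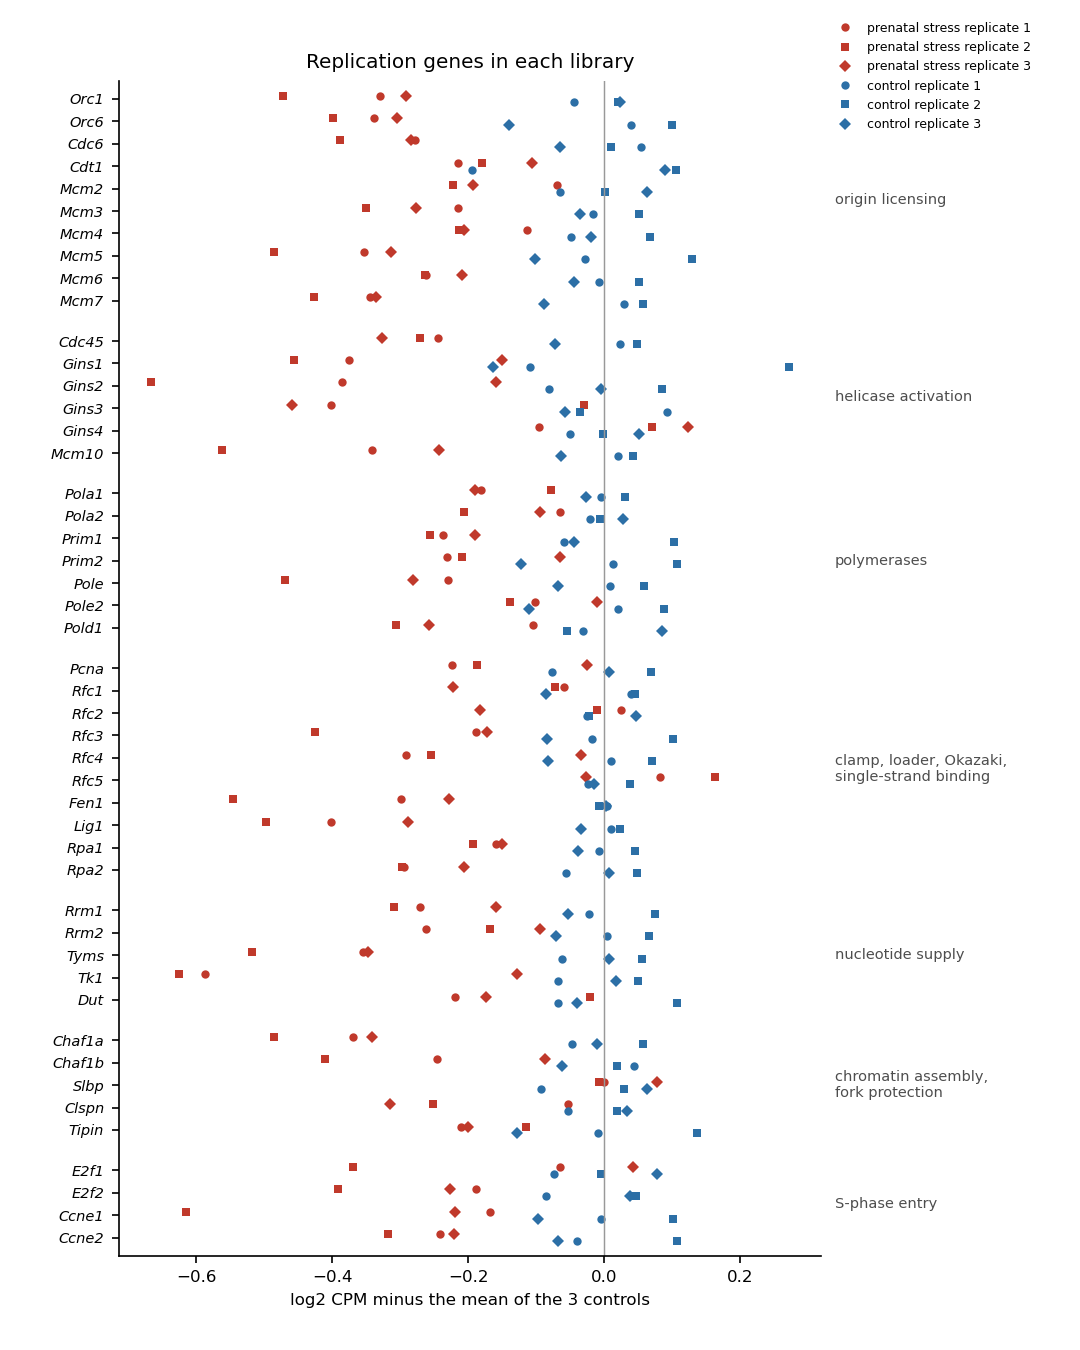
Level of each replication gene in each library, as log2 CPM minus the mean of the 3 controls, with genes grouped by role. Red symbols are the 3 stress libraries and blue symbols the 3 controls; in 31 of the 47 rows every red symbol lies left of every blue one.

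Together the 47 genes took 0.220% ± 0.0089 of all counts in stress libraries and 0.277% ± 0.0171 in controls (SD, n = 3 pools each). Their mean log2 level in CPM (counts scaled to a common library size with TMM factors) was 4.99, 4.92 and 5.03 in stress replicates 1, 2 and 3, against 5.19, 5.27 and 5.18 in control replicates 1, 2 and 3. On this scale every stress library was below every control. Stress replicate 2 was the lowest of the stress libraries in 32 genes, and control replicate 2 was the highest of the controls in 34. The count of calls rests on single libraries, among the 47 as among all genes tested. Without stress replicate 2, edgeR called 0 of the 47. It called 196 of all genes, of which 28 were lower (0.164% of those tested). Without control replicate 2 it called 0 of the 47 and 226 of all genes, of which 23 were lower (0.135%). With all libraries 1.85% of all genes tested were called lower. In those 2 fits 29 and 24 of the 47 still had an unadjusted p under 0.05, and the medians were -0.21 and -0.21. Without stress replicates 1 and 3 the fits called 5 and 21 of the 47 lower, and 0.676% and 7.69% of all genes tested. Without control replicates 1 and 3 they called 4 and 5 of the 47 lower, and 0.41% and 0.624% of all genes tested. Of the 15 calls, 0 held in every fit that left out 1 library. Scaling by library totals alone moves the median of all genes to -0.12. Under it 29 of the 47 were called lower and all 47 values were negative. That scaling called 9.16% of all genes tested lower, against 1.85% with TMM factors. Of all genes called, 26.5% were higher under library totals, against 70.0% with TMM factors.

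The genes that license origins held the most calls: 7 of 10 fell, and the other 3 did not pass. Log2 fold changes are given below with their standard error. Mcm7, a subunit of the helicase ring, had 81.5, 77.0 and 82.0 CPM in the stress libraries (here and below in the order of replicates 1, 2 and 3), against 106, 108 and 97.4 CPM in the controls (-0.37 ± 0.06, adjusted p = 0.0137). Mcm5, another ring subunit, was at 105, 95.9 and 108 CPM in the stress libraries, against 132, 147 and 125 CPM in the controls (-0.39 ± 0.07, adjusted p = 0.024). In both genes the highest stress library was well under the lowest control. Mcm3 was at 134, 122 and 129 CPM in the stress libraries, against 154, 162 and 152 CPM in the controls (-0.28 ± 0.06, adjusted p = 0.0286). Mcm6 was at 152, 152 and 157 CPM in the stress libraries, against 181, 189 and 176 CPM in the controls (-0.25 ± 0.05, adjusted p = 0.0347). The remaining ring subunits, Mcm2 and Mcm4, did not pass (-0.16 ± 0.06, adjusted p = 0.151, and -0.18 ± 0.06, adjusted p = 0.0982), although their stress libraries also lay below every control, for Mcm2 by a narrow margin (104.7 CPM in stress replicate 1, against 105.1 CPM in control replicate 1). The call of Mcm7 was kept in 4 of the 6 fits without 1 library, those of Mcm3 and Mcm5 in 2 and that of Mcm6 in 1. Of the Mcm7 transcript sequences of 75 bases, 8.98% are shared with another gene, Gm5487, so its count is less certain than the others.

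Among the loading factors, Orc6, the smallest subunit of the origin recognition complex, was at 18.1, 17.3 and 18.5 CPM in the stress libraries, against 23.5, 24.5 and 20.7 CPM in the controls (-0.35 ± 0.08, adjusted p = 0.0365). Orc1 encodes an ATP-binding subunit whose level varies through the cycle. It was at 7.97, 7.22 and 8.19 CPM in the stress libraries, against 9.72, 10.2 and 10.2 CPM in the controls (-0.36 ± 0.08, adjusted p = 0.042). Cdc6, which helps to load the ring, was at 13.8, 12.8 and 13.8 CPM in the stress libraries, against 17.4, 16.9 and 16.0 CPM in the controls (-0.32 ± 0.07, adjusted p = 0.0374). All 3 genes had stress and control libraries that did not overlap, and each call was kept in 1 or 2 of the 6 fits without 1 library. Cdt1, the partner of CDC6 in loading, did not pass (-0.17 ± 0.09, adjusted p = 0.279), with control replicate 1 at the level of the stress libraries. The other 4 subunits of the origin recognition complex, Orc2, Orc3, Orc4 and Orc5, had values from 0.08 to 0.15, and none passed. Under library totals those of Orc3 and Orc5 turned negative, at -0.04 each.

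Some promoters of these genes carry the element by which E2F factors are known to act. Those of the 4 ring genes called lower are shown, and each held it. The window of Mcm2, which did not pass, held 0 matches. Mcm4, which did not pass either, had no window, so the ring genes give no comparison by call beyond Mcm2. The windows of Orc6, Cdc45 and Mcm10, whose genes were called lower, also held 0. Each window holds 250 bases before and 50 after the annotated start (RefSeq, build GRCm38.p6, matched by symbol), and capitals mark matches to any of 4 E2F words, TTTGGCGC, TTTCGCGC, TTTCCCGC and TTTGCCGC, on either strand. Mcm3 lies at chr1:20820263-20820562 (minus strand), Mcm5 at chr8:75109259-75109558 (plus), Mcm6 at chr1:128359656-128359955 (minus), and the Mcm7 window at chr5:138171834-138172133 (minus) is the one of its 2 annotated starts with a match.
Mcm3: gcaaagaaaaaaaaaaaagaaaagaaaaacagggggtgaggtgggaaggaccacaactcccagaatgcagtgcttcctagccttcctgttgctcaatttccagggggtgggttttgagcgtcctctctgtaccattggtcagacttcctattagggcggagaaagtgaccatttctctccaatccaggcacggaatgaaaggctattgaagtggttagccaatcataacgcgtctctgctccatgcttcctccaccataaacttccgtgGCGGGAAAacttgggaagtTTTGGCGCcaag
Mcm5: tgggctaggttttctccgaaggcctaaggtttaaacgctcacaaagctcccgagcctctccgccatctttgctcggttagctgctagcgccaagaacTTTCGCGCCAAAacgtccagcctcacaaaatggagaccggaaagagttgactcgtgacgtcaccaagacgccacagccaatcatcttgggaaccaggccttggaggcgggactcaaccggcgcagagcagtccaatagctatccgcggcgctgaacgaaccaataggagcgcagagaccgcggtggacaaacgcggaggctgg
Mcm6: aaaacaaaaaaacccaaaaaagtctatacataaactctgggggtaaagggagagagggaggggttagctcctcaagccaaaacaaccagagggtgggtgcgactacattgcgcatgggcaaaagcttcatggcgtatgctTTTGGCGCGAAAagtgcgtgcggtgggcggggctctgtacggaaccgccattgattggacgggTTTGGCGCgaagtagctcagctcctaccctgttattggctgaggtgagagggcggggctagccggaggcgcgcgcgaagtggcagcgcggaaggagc
Mcm7: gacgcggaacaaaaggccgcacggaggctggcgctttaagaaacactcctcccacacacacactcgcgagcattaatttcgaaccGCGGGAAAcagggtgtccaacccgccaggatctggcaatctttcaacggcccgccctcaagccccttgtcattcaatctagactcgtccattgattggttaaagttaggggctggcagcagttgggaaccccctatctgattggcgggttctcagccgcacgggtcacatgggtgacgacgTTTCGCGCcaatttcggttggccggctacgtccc

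In Mcm5 the 2 matches overlap and face opposite strands, with first bases at -153 and -149 from the start, and the first 2 of the 3 matches of Mcm6 overlap in the same way. Of the 47 genes, 38 had a promoter in the table and 15 of these (39.5%) held an E2F word. The share was 7 of 14 (50.0%) among genes called lower and 8 of 24 (33.3%) among those not called, against 509 of 11165 (4.56%) of all genes tested that had a promoter and 2.61% of all 27025 genes of the table. Among other replication and S-phase genes with a promoter, 10 of 30 (33.3%) held an E2F word. A match is a description of the letters and not a bound site. A box that binds NF-Y, CCAAT on either strand, was in 60.5% of the 38, against 43.2% of the genes tested. In the 22 mitosis genes with a promoter its share was higher, at 77.3%. The cell cycle homology region, TTTGAA on either strand, marks promoters of mitotic genes. It was in 13.2% of the 38 and 68.2% of 22 mitosis genes, against 14.8% of the genes tested.

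**Figure D2:**
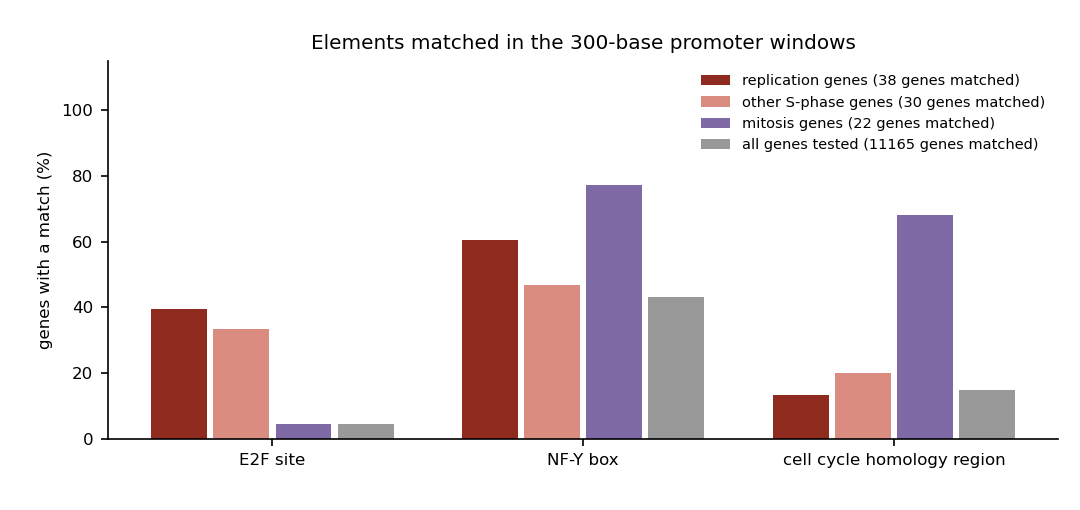
Share of genes (%) with each of 3 promoter elements in the window of 300 bases around the annotated start, for replication genes, other S-phase genes, mitosis genes and all genes tested. E2F words were in 39.5% of the replication genes and 4.55% of the mitosis genes, and the order is turned round for the cell cycle homology region.

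Of the 6 genes that turn the loaded ring into an active helicase, 2 fell and 4 did not pass. Cdc45, which joins the ring at firing, was at 20.3, 19.9 and 19.2 CPM in the stress libraries, against 24.4, 24.9 and 22.9 CPM in the controls (-0.28 ± 0.06, adjusted p = 0.0401). Mcm10, needed to start unwinding, was at 24.3, 20.9 and 26.1 CPM in the stress libraries, against 31.3, 31.8 and 29.5 CPM in the controls (-0.38 ± 0.09, adjusted p = 0.0394). Stress and control libraries did not overlap in either gene, and each call was kept in 1 of the 6 fits without 1 library. The 4 genes of the GINS complex were uneven. Gins1, Gins2 and Gins3 had values of -0.33, -0.39 and -0.29 with standard errors from 0.12 to 0.14, and none passed. Gins4 was at 14.4, 16.2 and 16.8 CPM in the stress libraries, against 14.9, 15.4 and 16.0 CPM in the controls (0.04 ± 0.08, adjusted p = 0.819), with full overlap. For Gins2, 67.3% of the exon length is overlapped by Gse1 on the opposite strand, and Gse1 fell too (-0.31 ± 0.07, adjusted p = 0.0387). Whether counting used the strand is not given in the sources used here. Reads over the overlap may therefore have been left out as ambiguous, or mixed between these 2 genes.

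Levels of different subunits can be compared per length of exon. On that scale, in CPM per kilobase, the ring subunits were above their activators in each group, Mcm2 and Gins4 being the nearest pair. Mcm3 and Mcm6 averaged 34.2 ± 1.60 and 32.9 ± 0.702 in stress libraries, against 41.6 ± 1.33 and 39.0 ± 1.32 in controls (SD, n = 3). Mcm2, the lowest of the ring, averaged 14.1 ± 0.804 in stress libraries and 15.8 ± 0.696 in controls. That place rests on the merged exon length, 6956 bases for Mcm2 and 3589 to 4666 for the other ring genes, and another choice of transcript could change it. Cdc45 averaged 5.65 ± 0.164 in stress libraries and 6.86 ± 0.301 in controls. Gins3, the lowest of the 47 on this scale, averaged 1.20 ± 0.202 in stress libraries and 1.46 ± 0.0832 in controls, whereas Gins4 averaged 11.7 ± 0.916 in stress libraries and 11.4 ± 0.400 in controls. Pcna was the highest of all, at 83.2 ± 6.19 in stress libraries and 91.9 ± 4.63 in controls.

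**Figure D3:**
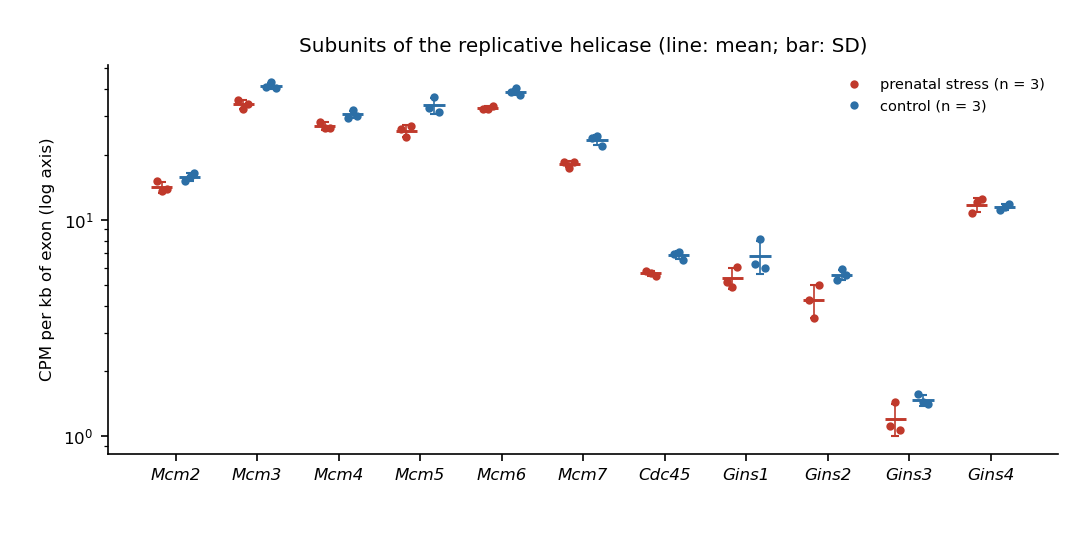
Levels of the helicase ring (Mcm2 to Mcm7) and of its activators Cdc45 and GINS in CPM per kilobase of exon, on a log axis; points are libraries, lines the mean and bars the SD (n = 3 pools per group). Red stress points lie under blue control points for each ring subunit and Cdc45, and the groups overlap for Gins1, Gins3 and Gins4.

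Of the 7 genes of the replicative polymerases, 1 fell. Pole, the catalytic subunit of the leading-strand polymerase, was at 31.9, 27.0 and 30.8 CPM in the stress libraries, against 37.6, 39.0 and 35.7 CPM in the controls (-0.32 ± 0.07, adjusted p = 0.0415), with a call kept in 1 of the 6 fits without 1 library. Pola1, the catalytic subunit of the primer-extending polymerase alpha, was at 74.0, 79.5 and 73.6 CPM in the stress libraries, against 83.6, 85.8 and 82.4 CPM in the controls. Its value of -0.15 ± 0.05 did not pass (adjusted p = 0.135), although the libraries did not overlap. The other 5 (Pola2, Prim1, Prim2, Pole2 and Pold1) had values from -0.23 to -0.08. On the per-length scale Pold1, the lagging-strand polymerase, was the highest of them in controls, with 8.23 ± 0.611 in stress libraries and 9.60 ± 0.509 in controls, while Pola1 averaged 8.59 ± 0.375 in stress libraries and 9.52 ± 0.195 in controls. These levels of the 2 genes did not differ beyond their spread in either group.

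At the fork behind the helicase, 3 of 10 genes fell and 7 did not pass. Lig1, the ligase that seals Okazaki fragments, was at 81.1, 75.8 and 87.7 CPM in the stress libraries, against 108, 109 and 105 CPM in the controls (-0.39 ± 0.06, adjusted p = 0.0138). Fen1, the nuclease that trims their flaps, was at 32.1, 27.0 and 33.7 CPM in the stress libraries, against 39.6, 39.3 and 39.5 CPM in the controls (-0.35 ± 0.08, adjusted p = 0.0423). Rpa2, a subunit of the single-strand binding protein RPA, was at 24.1, 24.0 and 25.6 CPM in the stress libraries, against 28.4, 30.5 and 29.7 CPM in the controls (-0.27 ± 0.06, adjusted p = 0.0415). Lig1 kept its call in 4 of the 6 fits without 1 library, and Fen1 and Rpa2 kept theirs in 1. Of the exon length of Fen1, 84.2% is overlapped by genes on the opposite strand, of which Tmem258 had a value of 0.13 ± 0.06 (adjusted p = 0.226). The clamp gene Pcna was at 189, 194 and 217 CPM in the stress libraries, against 209, 231 and 222 CPM in the controls (-0.14 ± 0.07, adjusted p = 0.243), and the groups overlapped. A pseudogene, Pcna-ps2, shares 13.8% of the Pcna transcript sequences of 75 bases, so its count is uncertain. The 5 clamp loader genes Rfc1 to Rfc5 had values from -0.26 to 0.07, and none passed. Rpa1, the large RPA subunit, was at -0.17 ± 0.05 (adjusted p = 0.0859).

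In nucleotide supply 1 of 5 genes fell. Tyms, thymidylate synthase, was at 30.2, 27.0 and 30.3 CPM in the stress libraries, against 37.0, 40.1 and 38.8 CPM in the controls (-0.40 ± 0.07, adjusted p = 0.0152), and kept its call in 3 of the 6 fits without 1 library. Rrm2, the regulated subunit of ribonucleotide reductase, was at 46.2, 49.3 and 51.9 CPM in the stress libraries, against 55.5, 58.0 and 52.7 CPM in the controls (-0.17 ± 0.06, adjusted p = 0.137). The lowest control of Rrm2 was only just above the highest stress library. Tk1, thymidine kinase of the salvage pathway, had the largest difference of the 47 but also a wide spread: it was at 23.7, 23.1 and 32.6 CPM in the stress libraries, against 34.0, 36.8 and 36.0 CPM in the controls (-0.43 ± 0.12, adjusted p = 0.075). Rrm1, the large reductase subunit, missed the threshold at -0.25 ± 0.06 (adjusted p = 0.0539), and Dut, which removes dUTP, was at -0.14 ± 0.08 (adjusted p = 0.331).

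Of the 5 genes of chromatin assembly and fork protection, 1 fell. Chaf1a, the large subunit of the histone chaperone CAF-1, had the smallest adjusted p of the 47: it was at 31.0, 28.6 and 31.6 CPM in the stress libraries, against 38.7, 41.6 and 39.7 CPM in the controls (-0.40 ± 0.06, adjusted p = 0.013). Its call was kept in 4 of the 6 fits without 1 library. Opposite-strand exons of Ubxn6 overlap 52.5% of its exon length, and Ubxn6 moved the other way (0.30 ± 0.07, adjusted p = 0.0496). Tipin, which steadies stalled forks, was at 30.0, 32.1 and 30.2 CPM in the stress libraries, against 34.5, 38.2 and 31.8 CPM in the controls (-0.18 ± 0.08, adjusted p = 0.188), with overlapping groups. Slbp, the histone mRNA binding protein, was level at 0.02 ± 0.06 (adjusted p = 0.849), and Chaf1b and Clspn were at -0.24 ± 0.09 and -0.20 ± 0.08 without passing.

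None of the 4 regulators of S-phase entry passed. E2f2 was at 12.3, 10.7 and 12.0 CPM in the stress libraries, against 13.2, 14.5 and 14.4 CPM in the controls (-0.27 ± 0.08, adjusted p = 0.0908), and the groups did not overlap. E2f1, an activating E2F and the most expressed of the 4 per length, was at 35.7, 28.9 and 38.5 CPM in the stress libraries, against 35.5, 37.2 and 39.4 CPM in the controls (-0.12 ± 0.10, adjusted p = 0.495). Here stress replicates 1 and 3 were within the range of the controls. The E-type cyclins Ccne1 and Ccne2 were at -0.32 ± 0.13 (adjusted p = 0.171) and -0.26 ± 0.08 (adjusted p = 0.0911).

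**Figure D4:**
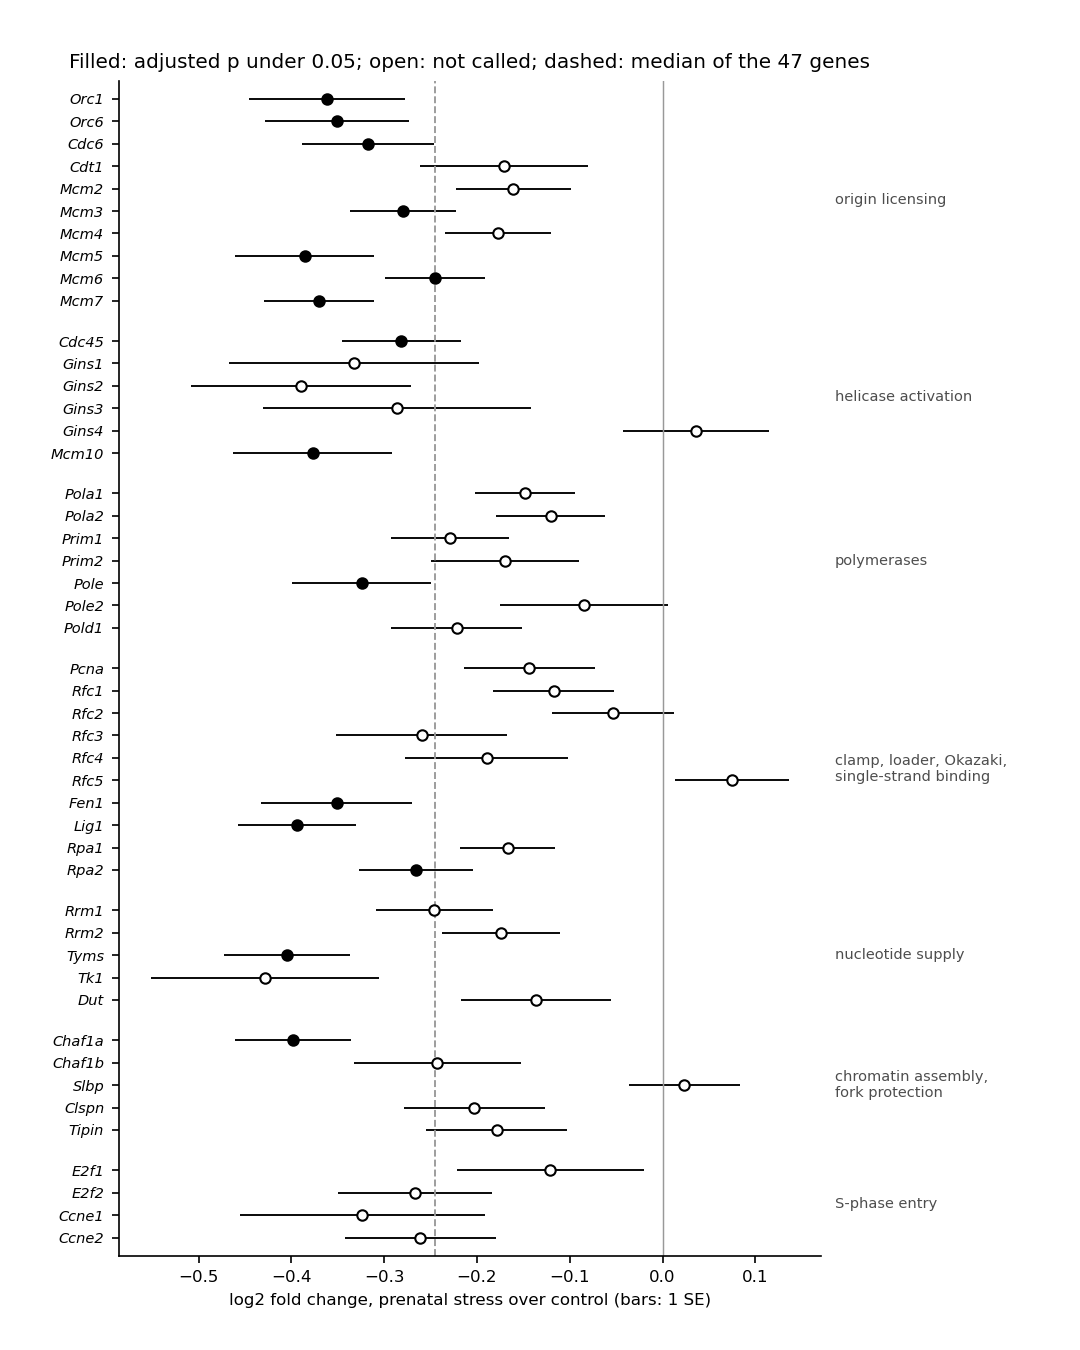
Log2 fold change of each replication gene, prenatal stress over control, with 1 standard error; filled points passed an adjusted p of 0.05 and open points did not. The dashed line is the median of the 47 genes, -0.25, and the 3 points right of 0 are Gins4, Rfc5 and Slbp.

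Other genes of the cycle were taken from lists outside the 47. Of 36 further replication and S-phase genes, 9 fell, 0 rose and 27 did not pass, with a median of -0.17. In 21 of the 36 (58.3%) all 3 stress libraries lay below all 3 controls, against 66.0% of the 47. Uhrf1, which brings DNA methyltransferase to newly copied DNA, was at 82.4, 73.4 and 81.4 CPM in the stress libraries, against 108, 113 and 105 CPM in the controls (-0.46 ± 0.06, adjusted p = 0.00822). That call was kept in all 6 fits without 1 library. Timeless, the partner of TIPIN, was lower by the log2 value -0.39 ± 0.07 (adjusted p = 0.0169), and its call was kept in 2 of those fits. The maintenance methyltransferase gene Dnmt1 fell as well (-0.31 ± 0.06, adjusted p = 0.0257), and Cdc7, the kinase that fires loaded origins, did so too (-0.33 ± 0.07, adjusted p = 0.0283), with calls kept in 2 and 1. In the list of 11 E2F and pocket protein genes 2 fell and 9 did not pass, with a median of -0.10. The 2 were the repressive family members E2f7 (-0.40 ± 0.08, adjusted p = 0.0291) and E2f8 (-0.35 ± 0.08, adjusted p = 0.0387), which are induced in S phase. Their calls were kept in 1 and 2 of the 6 fits.

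Mitosis genes had a median of -0.18, and 22 of 24 values were negative. All 3 stress libraries lay below all 3 controls in 14 of the 24 (58.3%), against 14.5% of all genes tested. This share was near the 66.0% of the 47 replication genes. Of the 24, 2 fell, 0 rose and 22 did not pass. The 2 were Bub1b, a spindle checkpoint kinase (-0.27 ± 0.06, adjusted p = 0.0436), and Aurka, a spindle pole kinase (-0.32 ± 0.08, adjusted p = 0.0445), each kept in 1 of the 6 fits. Mki67, which encodes the proliferation antigen Ki-67 and is named outside the rule for named genes, was at 447, 387 and 438 CPM in the stress libraries, against 488, 488 and 499 CPM in the controls (-0.21 ± 0.07, adjusted p = 0.0955). Whether replication and mitosis genes differed in their change was not tested.

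In the G1 list of cyclins, kinases and inhibitors 1 gene rose, 1 fell and 10 of 12 did not pass. Its median was 0.08, and -0.03 under library totals. Ccnd2, a D-type cyclin that acts upstream of the E2F factors, was at 382, 411 and 355 CPM in the stress libraries, against 232, 191 and 209.5 CPM in the controls (0.86 ± 0.09, adjusted p = 0.00218). All stress libraries were above all controls, and the call was kept in all 6 fits without 1 library. Myc, a growth-promoting transcription factor, was at 9.78, 10.7 and 13.1 CPM in the stress libraries, against 15.6, 18.7 and 15.9 CPM in the controls (-0.58 ± 0.12, adjusted p = 0.0299), a call kept in 1 of the 6 fits. The inhibitor gene Cdkn1a, which encodes p21 and is also named outside the rule, had a value of 0.20 and did not pass (adjusted p = 0.133).

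The RNA is that of a bulk sort, in which fewer cycling cells and less mRNA per cycling cell cannot be told apart. Transcripts that mark other cell types were also counted. All 10 mast cell markers were measured, and they summed to 85048 to 102462 CPM in stress libraries and 58717 to 70958 CPM in controls; 6 rose and 0 fell, and their part in the replication genes was not tested. All 16 macrophage markers were measured as well, none at 0, although the sort excluded cells with 2 of their proteins. They summed to 7248 to 11700 CPM in stress libraries and 9739 to 11173 CPM in controls, and 1 rose and 1 fell at the adjusted threshold. The list was lower on balance, much as the 47 genes were: its median was -0.24, 13 of 16 values were negative and 7 genes had an unadjusted p under 0.05. The mean log2 level of the macrophage list was 8.26, 8.13 and 8.72 in stress replicates 1, 2 and 3, against 8.46, 8.64 and 8.67 in the controls. Stress replicates 1 and 2 were below every control in macrophage markers and stress replicate 3 was above every control, while the mean of the 47 genes was below every control in all 3. With the macrophage mean as a covariate 7 of the 47 were called lower (Mcm3, Mcm5, Mcm7, Cdc45, Lig1, Tyms and Chaf1a). Of all genes tested, 1.77% were called lower with the covariate and 1.85% without it. The median of the 47 was -0.21 with the covariate, and 44 values stayed negative. How much of the difference in replication genes comes with the macrophage RNA was not tested beyond this fit. The 5 melanocyte markers summed to 28.5 to 69.8 CPM in stress libraries and 13.9 to 19.5 CPM in controls, and all 5 rose. Of 5 lymphoid markers tested 4 had negative values and all 5 an unadjusted p under 0.05, with a median of -1.76. At the adjusted threshold Trbc2 fell and Il7r rose, and the summed level, mostly Il7r, was 51.8 to 61.3 CPM in stress libraries and 25.8 to 49.5 CPM in controls. Trbc2, of the T cell receptor, was at 0.357, 0.390 and 0.108 CPM in the stress libraries, against 10.4, 3.06 and 1.07 CPM in the controls. The part of melanocytes and lymphocytes in the replication genes was not tested. The erythroid, keratinocyte, fibroblast and endothelial lists had 0 calls in edgeR, with 2, 0, 1 and 0 genes at an unadjusted p under 0.05.

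**Figure D5:**
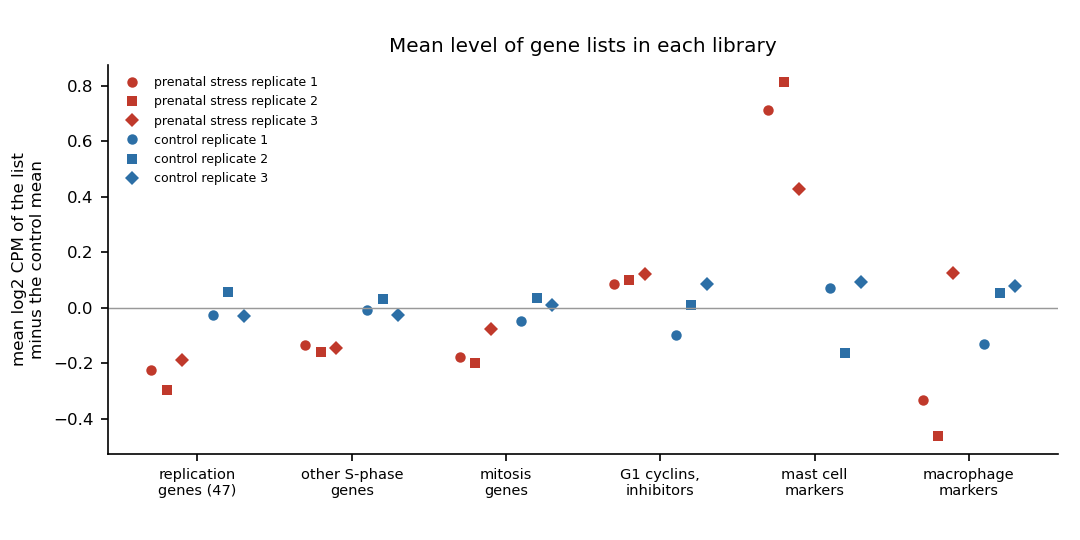
Mean log2 CPM of 6 gene lists in each library, minus the mean of the controls; red symbols are stress libraries, blue symbols controls. For the replication genes the 3 stress libraries lie 0.19 to 0.30 below the control mean, while in the macrophage list stress replicates 1 and 2 lie below all controls and stress replicate 3 (red diamond) above them.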

How the data were processed

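Mast cells were sorted from fetal skin after 45 minutes of enzymatic digestion at 37 °C, and stranded poly-A libraries were sequenced from 3 prenatal stress and 3 control pools, per the labels' protocols. The authors deposited raw counts per gene symbol. The submitters' processing notes name HTSeq 0.9.1, STAR 2.4 and FastQC, and, without saying what for, the builds GRCm39 and mm10. The strand setting and annotation release are not stated there. The 5 rows that name no gene were kept out; 79.7% to 81.4% of reads tallied per library were assigned to genes. Reads with no unique alignment are not in these counts.

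Genes were kept by edgeR's filterByExpr (minimum count 10), scaled with TMM factors and tested with edgeR 4.0.16's quasi-likelihood test (R 4.3.3), stress over control without covariates, and p-values were adjusted over all genes by Benjamini-Hochberg (threshold 0.05). The standard error is the log2 fold change divided by the root of F. CPM per kilobase uses the merged exon length in GENCODE M21 (GRCm38), whose gene models may differ from those the authors counted on. Counts of the 47 genes ranged from 151 to 16052 per library, and counting error weighs most on the lowest, such as Gins3. Replicates of a group differed by more than sampling noise (chi-square per degree of freedom 11.9 to 52.3). The test was tried first on simulated data, with changes placed in 200 genes drawn at random from all those tested. It recovered 10% of 1.25-fold, 54% of 1.5-fold, 78% of 2-fold and 94% of 4-fold changes. A small change in a gene that did not pass can therefore have been missed. The data gave 1035 calls, more than the 200 genes changed in the simulation. The adjusted threshold was thus not equally strict, and the shares recovered need not hold for the 47. Transcript sequences of 75 bases and exon overlaps came from GENCODE M21.

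The genes, their lists and the alternatives were chosen with earlier results of these data known. Named genes were those called, and in each role the one with the smallest p and the one most expressed per length; outside the 47, up to 4 called genes per list. Tk1, Orc2 to Orc5, Mki67, Cdkn1a and Trbc2 were singled out after their values were seen. Each library was left out in turn. Scaling was changed to upper-quartile or RLE factors or library totals, and the filter was dropped or raised (10 counts in 3 libraries, mean CPM of 1). Other fits used limma-voom (limma 3.58.1), DESeq2 1.42.0, a macrophage covariate or the replicate number as a block; stress replicate 3 alone against the controls was added after seeing the data.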

Additional observations from a re-analysis of the deposited data

How the results depend on the processing

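The median log2 fold change of the 47 replication genes was negative under every setting run, and none of the 47 was called higher under any. With library totals as the only scaling the median was -0.36, 29 of the 47 were lower and 2085 genes were called in all. DESeq2 called 1989 genes in all and no filter 1933. With the macrophage covariate 7 of the 47 and 900 genes in all were called. Stress replicate 3 alone, 1 library assumed to vary like the controls, gave 0 of the 47 (23 with an unadjusted p under 0.05, edgeR) and 171 genes in all. Leaving out 1 library gave 0 to 21 of the 47, 196 to 2647 genes in all and medians of -0.27 to -0.21. With the replicate number as a block 4 of the 47 and 622 genes in all were called. Same-numbered libraries shared no clear deviation (correlations 0.10, -0.02 and 0.07), so the numbers were not taken to pair the pools, and not every library correlated best with its own number. RLE and upper-quartile factors and limma-voom each called the same 15 genes of the 47, and the stricter filter, no filter and DESeq2 called these and 1, 3 and 4 more. No named gene changed sign together with a call. Neither the depth nor the number of pools was varied beyond leaving out 1 library.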
